A study of Mus musculus with 6 samples.

Results

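Foxk1 regions without Sin3A are the stretches of the genome that were listed as bound by Foxk1 in mouse myoblasts and that shared no base with any region listed for Sin3A. They were chosen from the positions of the deposited regions alone (build mm9), leaving out chromosomes 15 and M. There were 5309 such regions among 7931 Foxk1 regions on the other chromosomes, or 66.9% (exact 95% interval for counting error 65.9 to 68.0%). The remaining 2622 Foxk1 regions shared at least 1 base with Sin3A. The whole Foxk1 list held 8857 regions.

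Both lists come from chromatin immunoprecipitation sequencing (ChIP-seq), in which crosslinked DNA bound by a protein is pulled down with an antibody and sequenced. The cells were C2C12, an established myoblast line from mice of the C3H strain, per the labels, kept in serum-containing medium and not starved. The Foxk1 ChIP used a commercial Santa Cruz antibody and the Sin3A ChIP an antibody credited to an earlier publication. Each antibody had 1 sample, so the replicate error is unknown, no difference was tested, and every interval given for a share covers counting error only. The stated purpose was to examine where both proteins bind chromatin in non-starved myoblasts, and the 3 RNA libraries and the ChIP input of the series of 6 samples are not analysed here.

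Foxk1 is a forkhead transcription factor, which binds DNA through a winged-helix domain and also carries a forkhead-associated domain that recognises phosphorylated partners. It is known in muscle as a factor of myogenic progenitor cells. Sin3A does not itself recognise DNA sequence. It is a scaffold with paired amphipathic helices, to which DNA-binding factors attach and on which histone deacetylases of class I are assembled, and Foxk1 is among the factors known to contact it. The regions described here are therefore those at which a Foxk1 region was listed with no Sin3A region on the same bases.

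The lists gave the boundaries of each region and no score, so the strength of the signal at a region and the sequencing depth behind it are unknown. A region without Sin3A is one with no listed Sin3A region, which does not measure how much Sin3A was there. The Sin3A list was the longer of the 2, with 15185 distinct regions outside chromosomes 15 and M and a median width of 704 bases. Of these Sin3A regions, 2583 (17.0%, 16.4 to 17.6%) shared a base with a Foxk1 region. Genes and sequence at the regions were not looked up, because no annotation or genome of build mm9 was used here. The regions are accordingly named by position, counted from base 1.

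Few regions lay close to the line that the rule drew. Of the 5309 regions without Sin3A, 24 (0.452%) ended less than 100 bases from a Sin3A region. The nearest, chr2:18794543-18795133, stopped 5 bases before a Sin3A region of 412 bases. The next were chr17:35975219-35975704 at 9 bases, chr19:47389658-47391189 and chr19:56623619-56624151 at 11 bases each, and chr10:45008348-45008901 at 12 bases. On the other side of the line, 28 of the 2622 regions with Sin3A (1.07%) shared fewer than 100 bases. The smallest overlaps were 2 bases, at chr11:44757115-44757755 and chr13:55546264-55546719, followed by 5 bases at chr1:59538686-59538946, 10 bases at chr6:51122690-51123110 and 18 bases at chr5:117565206-117565558. Most overlaps were far from this margin: 1504 of the 2622 regions with Sin3A (57.4%) lay wholly inside Sin3A regions, and in 2472 (94.3%) at least 50% of the Foxk1 region was covered.

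Regions without Sin3A were narrower than those with it. Their median width was 564 bases (middle 50% from 461 to 689 bases), against 630 bases (488 to 812) in regions with Sin3A. The narrowest and widest were 52 and 2148 bases without Sin3A, and 130 and 2900 bases with Sin3A. Together the regions without Sin3A covered 3156893 bases, and those with Sin3A 1774158 bases. Of the regions without Sin3A, 5098 (96.0%) were narrower than 1000 bases, against 2329 (88.8%) of those with Sin3A. Width enters the chance of sharing a base and so was used by the rule, and these values are a description. The order was the same on 18 of 19 chromosomes; on the X chromosome the medians were 561 bases without and 527 bases with Sin3A.

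The share without Sin3A did not fall evenly with width. It lay between 69.7% and 73.5% in each class of width up to 700 bases, where most Foxk1 regions are. Among regions of 700 to under 800 bases it was 63.3% (568 of 898), and among those of 800 to under 1000 bases 54.0% (470 of 870). Of the 504 Foxk1 regions of 1000 bases or more, 211 (41.9%, 37.5 to 46.3%) had no Sin3A. Of the 42 regions of 1500 bases or more, 12 (28.6%, 15.7 to 44.6%) had none. The decline thus began above the width of most regions without Sin3A.

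**Figure D1:**
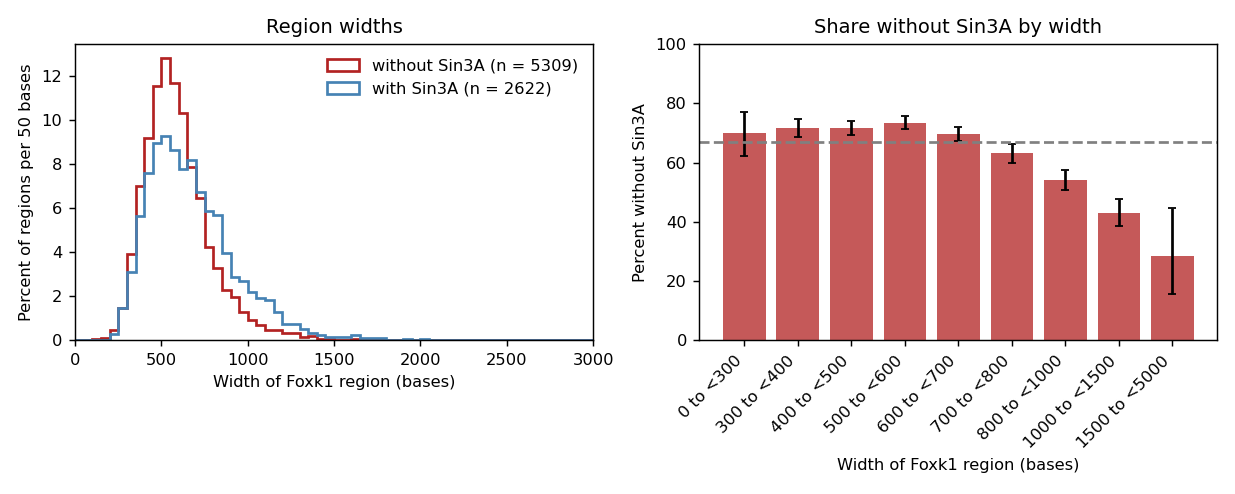
Left: widths of Foxk1 regions without Sin3A (n = 5309) and with Sin3A (n = 2622), as the percent of each class per 50 bases. Right: percent of Foxk1 regions without Sin3A by class of width, with exact 95% intervals for counting error; the dashed line is the 66.9% over all regions, and the bars lie below it only from 700 bases upward.

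The widest region without Sin3A was chr10:74684263-74686410, at 2148 bases, and its nearest Sin3A region lay 8282 bases away. The next, chr13:103121448-103123213, was 1766 bases wide and stood 118490 bases from any Sin3A region and 92983 bases from any other Foxk1 region. A pair on chromosome 4 followed. These were chr4:59344010-59345709 (1700 bases) and chr4:59327383-59329071 (1689 bases), 14938 bases apart, with Sin3A regions 4987 and 15936 bases away. The fifth and sixth were chr8:86760707-86762394 (1688 bases) and chr3:108813433-108815076 (1644 bases), at 10644 and 14471 bases from Sin3A. None of these 6 wide regions was thus on the margin of the rule. By contrast, the widest of chromosome 19, at 1532 bases, is the region named above that ended 11 bases from a Sin3A region. The widest region of each chromosome measured from 942 bases on the X chromosome to 2148 bases on chromosome 10.

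Regions without Sin3A mostly lay well apart from the nearest Sin3A region. The median gap between the nearest edges was 32991 bases (middle 50% from 11334 to 78248 bases). A Sin3A region stood within 1000 bases of 232 regions (4.37%), within 10000 bases of 1206 (22.7%) and within 100000 bases of 4328 (81.5%). For regions with Sin3A, the same gap was taken to the nearest Sin3A region that shared no base with them. Its median was 23077.5 bases, and such a region stood within 1000 bases of 262 (9.99%), within 10000 bases of 801 (30.5%) and within 100000 bases of 2328 (88.8%). Over all Foxk1 regions these shares were 6.23%, 25.3% and 83.9%. Regions without Sin3A were thus also farther from the Sin3A regions around them, on the same scale on which they were chosen, so that nothing further is read from the difference. When only regions at or above the median width of each list were used, regions without Sin3A had a median gap of 65426 bases, and 13.1% had a Sin3A region within 10000 bases. This setting leaves out the narrower Sin3A regions too. Foxk1 regions lying only on those then count as without Sin3A, and fewer Sin3A regions are left to be near.

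The gaps of regions without Sin3A thinned out with distance from Sin3A over the first kilobases. There were 140 with a gap under 500 bases and 92 with one from 500 to under 1000 bases. The following step of 500 bases held 72, and each of the 7 steps from 1500 to 5000 bases held between 42 and 70. From 5000 to under 10000 bases there were 487, or 48.7 for each 500 bases. The thinning was not particular to them. Among the 2622 regions with Sin3A, the gap to another Sin3A region was under 500 bases for 158. It was from 500 to under 1000 bases for 103, from 1000 to under 1500 bases for 60 and from 5000 to under 10000 bases for 264. The width of the regions without Sin3A did not follow the gap: the median was 570.5 bases within 1000 bases of Sin3A and 562 bases beyond 100000 bases.

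**Figure D2:**
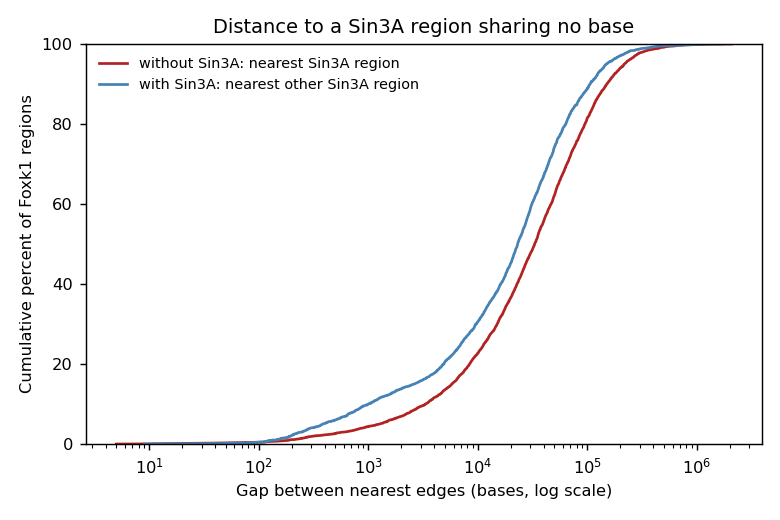
Cumulative percent of Foxk1 regions against the gap in bases (log scale) to the nearest Sin3A region sharing no base, for regions without Sin3A and with Sin3A. The curve of regions without Sin3A lies to the right, with a median of 32991 bases against 23077.5 bases.

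At the far end, 44 regions without Sin3A (0.829%) were over 500000 bases from any Sin3A region, against 12 regions with Sin3A (0.458%) that were as far from another Sin3A region and 0.706% of all Foxk1 regions. Of the 44, 7 were over 1000000 bases away. The 2 most distant stood on chromosome 7, at chr7:68561365-68561775 (2076076 bases) and chr7:68291358-68291824 (1806069 bases), 269540 bases from each other and with the same nearest Sin3A region. A similar pair stood on chromosome 12, at chr12:46664293-46664951 (1270618 bases) and chr12:46563193-46563773 (1169518 bases). The fifth, chr16:47885853-47886215, was 1102858 bases from Sin3A and 1916383 bases from another Foxk1 region. Their widths ran from 363 to 659 bases. In a wider count, 569 regions without Sin3A (10.7%) had neither a Sin3A nor another Foxk1 region within 100000 bases, against 166 regions with Sin3A (6.33%) and 9.27% of all Foxk1 regions. For regions with Sin3A, the Sin3A region on the same bases was not counted.

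The Sin3A regions next to Foxk1 regions without Sin3A were somewhat narrower in the median than the 704 bases of all Sin3A regions. The nearest Sin3A region to a Foxk1 region without Sin3A had a median width of 675 bases, and among the 232 pairs within 1000 bases the median was 632.5 bases. Around regions with Sin3A, the nearest Sin3A region that shared no base had a median of 755 bases. The Sin3A regions that did lie on a Foxk1 region had a median of 1127 bases, and those that lay on none 645 bases. The width of a Sin3A region enters its chance of sharing a base, so these medians are a description. For 47 of the 232 regions within 1000 bases (20.3%, 15.3 to 26.0%), the nearby Sin3A region was itself shared by another Foxk1 region, against 867 of all 5309 (16.3%) and 17.0% of all Sin3A regions.

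Other Foxk1 regions lay at a similar median distance in both classes, but within 1000 bases they were less frequent around regions without Sin3A. The median gap to the nearest other Foxk1 region was 47775 bases without Sin3A and 46530 bases with Sin3A. Another Foxk1 region lay within 1000 bases of 197 regions without Sin3A (3.71%) and 176 with Sin3A (6.71%), against 4.7% over all Foxk1 regions. Within 10000 bases the numbers were 1012 (19.1%) and 493 (18.8%), against 19% over all. Within 100000 bases they were 3660 (68.9%) and 1919 (73.2%), against 70.3%. The nearest other Foxk1 region was closer than the nearest Sin3A region for 1953 of the 5309 regions without Sin3A (36.8%). The lists differ in length, with 7931 Foxk1 and 15185 Sin3A regions, and this share was not taken for regions with Sin3A. Nothing is therefore read from it about regions without Sin3A.

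The Foxk1 neighbours of regions without Sin3A were themselves without Sin3A more often than the neighbours of regions with it. Where another Foxk1 region lay within 1000 bases, it too was without Sin3A for 162 of 197 regions without Sin3A (82.2%), and it was without Sin3A for 35 of 176 regions with Sin3A (19.9%). Within 10000 bases these shares were 75.3% (762 of 1012) and 50.3% (248 of 493). Within 100000 bases they were 73.0% (2672 of 3660) and 54.4% (1044 of 1919). Of all Foxk1 regions with such a neighbour, 52.8%, 67.2% and 65.6% were without Sin3A at the 3 distances. The contrast was widest at the shortest distance, where neighbours can lie on the same Sin3A region, and it was still present at 100000 bases. Pairs of nearest neighbours are counted from both sides and the class of a neighbour is the value that the rule used, so these shares are a description and carry no interval.

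**Figure D3:**
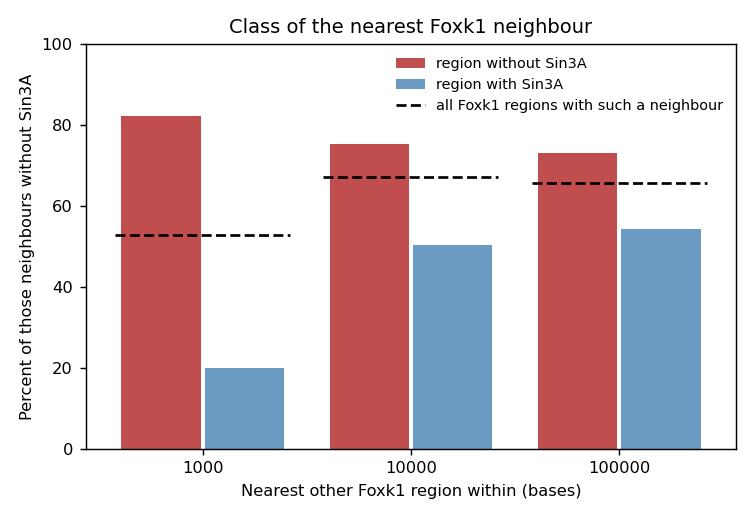
Percent of nearest Foxk1 neighbours that were without Sin3A, for Foxk1 regions without Sin3A and with Sin3A that have a neighbour within 1000, 10000 and 100000 bases. Dashed lines give the percent without Sin3A among all Foxk1 regions with such a neighbour (52.8%, 67.2% and 65.6%); bars of regions without Sin3A stand above them and those of regions with Sin3A below them.

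Long runs were rare. Counting only regions without Sin3A, 4527 (85.3%) had no other such region within 10000 bases, 640 stood in pairs, 111 in runs of 3 and 16 in runs of 4, and the 2 longest runs held 10 and 5. Leaving the regions with Sin3A uncounted can only shorten runs. A Foxk1 region of either class lay within 10000 bases of 19.1% of regions without Sin3A and 19% of all Foxk1 regions. Run lengths over all Foxk1 regions are not given here, so the rarity of runs is not read as particular to regions without Sin3A. The run of 10 lay at chr9:3003141-3037243, close to where the assembled sequence of that chromosome begins. Its regions were 129 to 684 bases wide with gaps of 56 to 7429 bases, and 2 Foxk1 regions with Sin3A and 5 Sin3A regions lay between them. The run of 5 lay at chr17:71078049-71103463, with regions of 547 to 851 bases and no Sin3A region inside; the Sin3A region nearest to it was 705 bases away. The third by position was a run of 4 at chr8:10605133-10630464, with regions of 487 to 743 bases and 1 Sin3A region inside. Of the other runs of 4, named after their values were seen, 1 was at chr11:117153690-117177785, with regions of 428 to 695 bases and 1 Sin3A region inside. Another, at chr8:10646465-10665392, stood a short way along from the chromosome 8 run above, 27089 to 45015 bases from Sin3A. The most compact run held 4 regions in the 5725 bases of chr17:39979943-39985667, among them 1 of 1286 bases. The Sin3A region nearest to it was 142571 bases away. Repeated sequence and the ChIP input were not examined at any of these runs.

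The share of Foxk1 regions without Sin3A ranged from 53.0% to 74.3% over the 19 chromosomes. It was highest on chromosomes 13 (274 of 369, 74.3%), 10 (423 of 570, 74.2%) and 8 (433 of 585, 74.0%), and lowest on chromosomes 7 (140 of 264, 53.0%) and 11 (446 of 761, 58.6%). The 95% interval for counting error lay above the share over all chromosomes on 3 of 19, below it on 4 (7, 11, 5 and 9), and spanned it on 12. These intervals take regions as independent, although neighbouring regions tended to share their class. They are therefore too narrow, and no chromosome is called different from them. By number, the most regions without Sin3A stood on chromosome 2, with 457 of 677 (67.5%, against 66.9% over all chromosomes), followed by chromosomes 11 and 8. Chromosome 11 held the most Foxk1 regions of the 19, with 761. The X chromosome had the fewest, 66 of 95 (69.5%, 59.2 to 78.5%), and there the median gap to Sin3A was the largest of the 19, at 102378 bases. Median widths were close, from 542 bases on chromosome 6 to 578 bases on chromosome 14.

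**Figure D4:**
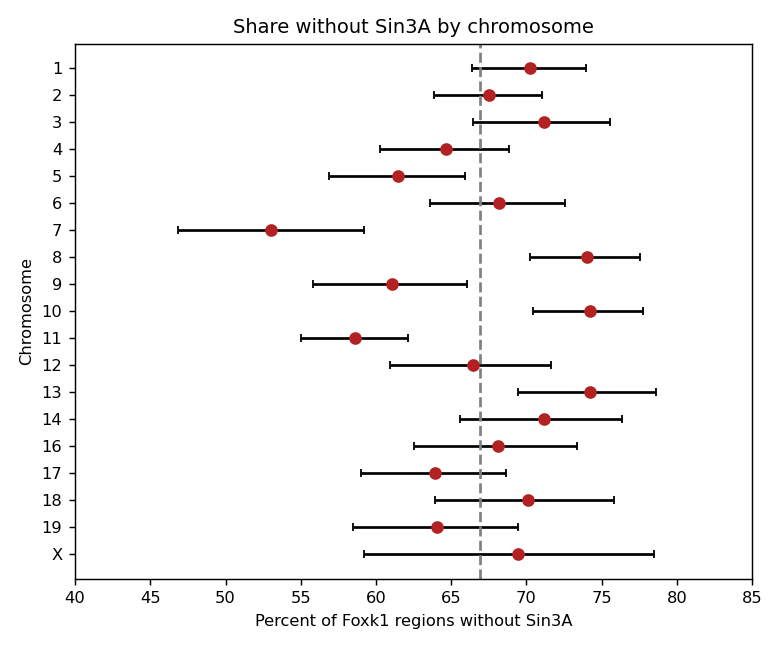
Percent of Foxk1 regions without Sin3A on each of 19 chromosomes, with exact 95% intervals for counting error; the axis starts at 40%. The dashed line is the 66.9% over all of them; chromosomes 7 and 11 lie lowest and chromosomes 13, 10 and 8 highest.

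The high share of chromosome 8 lay in a pair of adjoining windows. Chromosomes were divided into windows of 10000000 bases (10 Mb), a step chosen after the values were seen, and 171 of 260 windows held 20 or more Foxk1 regions. In those 171 the share without Sin3A ran from 25.9% to 93.3%, with a median of 68.1%. The window of chromosome 8 from 80 to 90 Mb held the most Foxk1 regions of the 260, namely 130, of which 114 (87.7%, 80.8 to 92.8%) were without Sin3A. The adjoining window from 90 to 100 Mb held 105, of which 98 (93.3%, 86.7 to 97.3%) were without Sin3A, the highest share of the 171. Together they had 212 of 235 (90.2%, 85.7 to 93.7%), whereas the rest of chromosome 8 had 221 of 350 (63.1%, 57.9 to 68.2%). This pair was picked after its values were seen, and the intervals take regions as independent. They are therefore too narrow, and no difference is called from them.

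These windows of chromosome 8 did not lack Sin3A regions. They held 204 and 150, of which 16 (7.84%) and 7 (4.67%) shared a base with Foxk1. The 204 from 80 to 90 Mb were the most Sin3A regions of the 260 windows, so both lists were long there. Regions without Sin3A in these windows had a median gap to Sin3A of 17982.5 bases, against 26581 bases on the rest of the chromosome. By class of width, the share was 92.2% (71 of 77) among Foxk1 regions under 500 bases, 96.3% (78 of 81) from 500 to under 700 bases and 81.8% (63 of 77) at 700 bases or more, against 75.2%, 70.1% and 41.2% on the rest of the chromosome. The Sin3A regions in these windows were narrower, with a median of 596.5 bases and 24.0% at 1000 bases or more, against 725.5 bases and 32.3% on the rest of chromosome 8. The part of the Sin3A widths in these shares was not tested. The ChIP input and the number of DNA copies in these windows were not examined.

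Below 100 Foxk1 regions in a window, more regions did not go with a higher share. The 3 windows with 100 or more had 82.6% without Sin3A (281 of 340), of which the chromosome 8 windows held 212 of 235. The third window with 100 or more Foxk1 regions, on chromosome 11 from 100 to 110 Mb, had 69 of 105 without Sin3A (65.7%, 55.8 to 74.7%). The 15 windows with 60 to 79 Foxk1 regions had 60.6% (619 of 1022), and the 96 with 20 to 39 had 67.7% (1852 of 2736). Chromosome 15, not among the regions counted here, had 732 of 915 without Sin3A (80%). At the other end stood the last window of chromosome 11, from 120 Mb, with 7 of 27 (25.9%), chromosome 17 from 50 to 60 Mb with 7 of 22 (31.8%) and chromosome 7 from 20 to 30 Mb with 11 of 31 (35.5%).

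**Figure D5:**
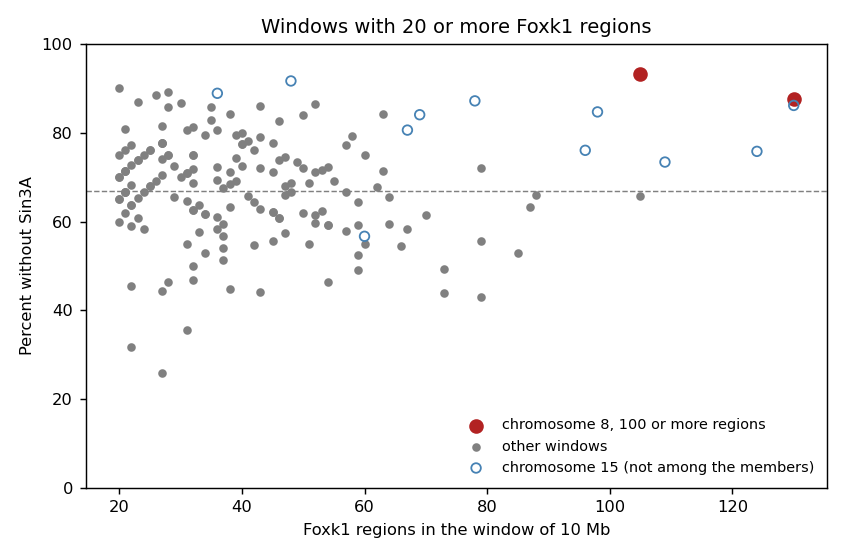
Percent of Foxk1 regions without Sin3A against the number of Foxk1 regions, for windows of 10 Mb with 20 or more. The chromosome 8 windows with 100 or more regions stand at 87.7% and 93.3%; the dashed line is 66.9%, and open points are windows of chromosome 15, which is not among the regions described.

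The share without Sin3A was lower in windows whose Sin3A regions were wide. When the 171 windows were ordered by the median width of their Sin3A regions, the 57 with medians of 526 to 663 bases had 1534 of 2010 Foxk1 regions without Sin3A (76.3%). The 58 with medians of 665.5 to 785 bases had 67.3% (1619 of 2407), and the 56 with medians of 790 to 1073 bases had 59.2% (1519 of 2568). Across the 171 windows Spearman's rank correlation was -0.59 and Pearson's r -0.55, and without the chromosome 8 windows of 100 or more they were -0.58 and -0.54. The share also went with other counts of the window. Spearman's rank correlation was -0.37 against the number of Sin3A regions (-0.42 without the chromosome 8 windows), 0.31 against the number of Foxk1 regions per Sin3A region and -0.16 against the number of Foxk1 regions. These are descriptions, since all windows come from the same pair of libraries and the extent of the Sin3A regions enters the rule.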

How the data were processed

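The authors deposited 1 list of regions for Foxk1 and 1 for Sin3A, with left and right boundaries per the file headers and no score. Build mm9 and the tools bedtools, SAMtools 0.1.19 and BWA 0.7.5a are named, without roles, in the submitters' processing notes. How regions were called, at which thresholds, and whether samples were merged is not given in the sources used here. Groups were taken from the sample titles. Left boundaries were read as counted from 0. No Foxk1 region touched a Sin3A region without sharing a base, so the choice of members does not depend on this. Of 16779 Sin3A lines, 6 repeated ones were removed. A region counted as shared with a minimum of 1 base, and bedtools 2.31.1 returned the same number, 5309. The overlap code was tested on simulated data. Gaps run between nearest edges. Intervals for shares are exact Clopper-Pearson intervals at 95%, which take regions as independent. The smallest gap between listed regions was 56 bases for Foxk1 and 100 bases for Sin3A, outside chromosomes 15 and M. Depth is unknown.

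Regions named are the widest 6, the 5 farthest from and 5 nearest to Sin3A, the 5 smallest overlaps and the 3 longest runs. The rule also took the widest region of each chromosome, given as a range of widths. Further runs of 4 were named after their values were seen. The members, this rule and the comparisons were chosen with earlier results of these data known. Planned work on start sites, sequence and expression was not run, as no annotation of mm9 was used. Alternatives covered the overlap rule, the widths, the windows and the chromosomes. Python 3.11.15, numpy 2.4.6, pandas 2.3.3, scipy 1.17.1 and matplotlib 3.10.9 were used.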

Additional observations from a re-analysis of the deposited data

How the results depend on the processing

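With 1 list per antibody there was no replicate to leave out, and caller thresholds could not be varied. No paired analysis was possible because each antibody had 1 sample. A share or median counted as moved when it left its 95% interval for counting error (for medians, that of the ranks). The number of regions has no such interval. The share of Foxk1 regions without Sin3A was 68.8% when 50% of the region had to be covered, 68.7% when its midpoint had to lie in a Sin3A region, 65.2% and 64.0% when gaps of up to 500 and 1000 bases counted as shared, 68.2% with all chromosomes and 71.9% among regions of 500 to 700 bases. The median gap to Sin3A was 31467 bases with 50% cover, 35345 bases without gaps of up to 1000 bases, 30235 bases with all chromosomes and 35369.5 bases among regions of 500 to 700 bases. The share with Sin3A within 10000 bases was 24.8% with 50% cover, 24.7% by midpoint, 20.6% and 19.2% without gaps of up to 500 and 1000 bases, and 24.0% with all chromosomes; with windows of 1000 and 100000 bases it was 4.37% and 81.5%. With regions at or above the median width of each list, the narrower Sin3A regions left out too, 2650 regions were without Sin3A. Their median width was 704 bases, their median gap 65426 bases and the share within 10000 bases 13.1%. Regions of 500 to 700 bases without Sin3A numbered 2276, with a median width of 586 bases. Fewer regions enter both by construction, and the median widths of 704 and 586 bases follow from choosing by width. The shares of 4.37% and 81.5% follow from the change of window. A stricter overlap rule can only raise the share without Sin3A, and counting gaps as shared can only lower it. Leaving out gaps of up to 500 or 1000 bases also lowers the share within 10000 bases and raises the median gap by construction. The cause of the other moves was not tested. Leaving out the 3 windows with 100 or more Foxk1 regions, or runs of 4 or more, moved none of these shares and medians. The numbers of regions without Sin3A were then 5028 and 5259. Both settings, and the classes of 500 to 700 bases, were chosen after seeing the data.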

Other observations

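Chromosome M, left out above, had 11 Foxk1 regions, of which 2 shared no base with Sin3A (18.2%, exact 95% interval 2.28 to 51.8%). The narrowest Foxk1 regions without Sin3A, chosen after their values were seen, were 52 bases wide at chr18:3005796-3005847, 86 bases at chr3:5860615-5860700 and 119 bases at chr6:47622183-47622301. Of the regions with Sin3A, 19 of 2622 (0.725%) lay on more than 1 Sin3A region.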
